A study of Schizosaccharomyces pombe with 30 samples.

Results

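ssm4 and mcp7 are meiotic genes of fission yeast (*S. pombe*) that lie under small islands of heterochromatin in growing cells. H3K9me2 at these islands was described from every filtered 300bp window that overlapped or lay within 1000 bases of either gene. This gave 10 windows at ssm4 and 9 at mcp7, 19 of 1500 in all, together with the 8 of 2520 bins of 5kb that surround them. A window whose midpoint fell inside the gene was counted as island centre, and the others as island edge.

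The islands were compared across 5 genotypes by ChIP-seq with an antibody to H3K9me2. The count tables hold 13 ChIP libraries, with 3 replicates (A, B, C) of Δfkh2, of Δprw1 and of clr3-D232N, 2 of clr6-1 (A, B) and 2 of wild-type (B, C). The authors removed 1 clr6-1 and 1 wild-type replicate as outliers, and the inputs were not analysed here, so no value is normalized to input. All 5 genotypes, wild-type included, carried the MAT ΔREIII reporter background, in which the REIII element of the mating type locus is inactivated by short deletions of its Atf1/Pcr1 binding sites and the ade6 promoter drives the reporters SF-GFP at cenH, mKO2 at mat3m and 3xE2C. fkh2 was replaced by natMX in Δfkh2 and prw1 by kanMX in Δprw1. clr6-1 is a hypomorphic allele of an essential gene, and clr3-D232N a catalytically dead allele marked with natMX. Each genotype was 1 strain, grown in YES medium at 32°C. The study's methods call the replicates biological but do not say how they were grown apart, and p-values measure the spread between these libraries.

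H3K9me2 is the histone mark of fission yeast heterochromatin and is laid down by the methyltransferase Clr4. At many meiotic genes it depends on RNA: Mmi1, a YTH-domain protein, binds U(U/C/G)AAAC motifs in the transcript during growth and directs it to the nuclear RNA elimination machinery, which also brings Clr4 to the gene. Clr6 and Clr3 are histone deacetylases of class I and class II. Prw1 is a core subunit of Clr6 complexes, and Fkh2 a forkhead transcription factor that associates with them. ssm4 encodes the Glued subunit of dynactin, needed for the nuclear movements of meiotic prophase, and mcp7 encodes the fission yeast Mnd1, a coiled-coil protein of meiotic recombination.

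ssm4 (SPAC27D7.13c) lies on the minus strand at I:4534674-4536736 and mcp7 (SPAC13A11.03) on the plus strand at I:578450-579948. The windows kept at each gene were lopsided. At ssm4 all 6 grid windows over the gene and all 4 past its 3′ end were in the filtered table, and at mcp7 all 5 and all 4. None of the 4 grid windows past either 5′ end was kept. Every edge window therefore lay past a 3′ end, with 3 of 4 overlapping but1 at ssm4, whose product binds the neddylation enzyme Uba3, and all 4 overlapping ubp8 at mcp7, which encodes the ubiquitin protease of SAGA. ubp8 runs toward mcp7 and overlaps its 3′ end, as it spans I:579353-581480. One edge window of ssm4, I:4534501-4534800, holds the last bases of the gene.

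The sequences under the highest wild-type window of each island are shown because Mmi1 reads its motif in RNA from these genes. They are from RefSeq (ASM294v3), 5′ to 3′ on the coding strand, with each TNAAAC, the DNA form of the motif core with any base second, in capitals. This search also takes in TAAAAC, which U(U/C/G)AAAC leaves out, so shares and densities below are of TNAAAC and not of the Mmi1 motif. The ssm4 stretch is the window I:4535101-4535400 on the minus strand, all of it coding. The mcp7 stretch is I:579001-579247 on the plus strand, the coding part of its highest window.
ssm4: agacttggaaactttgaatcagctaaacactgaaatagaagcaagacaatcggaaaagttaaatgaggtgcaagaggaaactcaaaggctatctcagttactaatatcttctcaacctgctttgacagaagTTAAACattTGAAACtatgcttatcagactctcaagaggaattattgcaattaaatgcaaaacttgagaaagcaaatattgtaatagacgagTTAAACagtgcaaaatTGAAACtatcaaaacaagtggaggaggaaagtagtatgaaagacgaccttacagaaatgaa
mcp7: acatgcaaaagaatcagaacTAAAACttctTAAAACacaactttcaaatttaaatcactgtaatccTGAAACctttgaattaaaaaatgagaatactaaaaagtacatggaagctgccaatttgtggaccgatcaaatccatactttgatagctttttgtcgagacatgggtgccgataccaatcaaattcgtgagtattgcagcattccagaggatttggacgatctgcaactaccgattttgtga
The ssm4 stretch holds 4 TNAAAC, of which 2 are TTAAAC and 0 are TAAAAC. Of 83810 stretches of the same length in protein-coding genes, 43.9% held at least 1 TNAAAC and 0.461% held as many as ssm4. The mcp7 stretch holds 3 TNAAAC, of which 2 are TAAAAC and none is TTAAAC, and of 101792 stretches of its length 37.8% held at least 1 and 1.47% as many.

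Over the whole gene, ssm4 had 13 TNAAAC on the sense strand and 5 on the antisense strand, and mcp7 had 10 and 4. TTAAAC, which is counted within TNAAAC, occurred 6 times in sense and 1 time in antisense at ssm4, and 3 and 0 times at mcp7. TAAAAC made up 2 of the 13 sense matches at ssm4 and 3 of the 10 at mcp7. The sense density of TNAAAC was 6.30 per kb at ssm4 and 6.67 per kb at mcp7, against a median of 1.65 per kb over 5113 protein-coding genes, 0.587% and 0.469% of which reached these densities. These matches describe letters, not binding. At ssm4, 10 of the 13 sense matches fell in 3 adjoining windows of the island centre, I:4534801-4535100, I:4535101-4535400 and I:4535401-4535700. Both TAAAAC matches of ssm4 were among the 3 in I:4535401-4535700. I:4535701-4536000 next to them held 0, at 11.3 times background in wild-type (mean). At mcp7, I:579601-579900 held 0 at 12.4 times, and I:578401-578700 held 3 at 3.73 times.

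Libraries were scaled by median-of-ratios size factors of the 5kb bins, from 0.465 to 2.18, with 4408669 to 12641248 fragments per library in these bins. The 1500 windows held 27.1% to 70.3% of that total. Levels below are given relative to background, the library's own median 5kb bin rescaled to 300 bases. This too is a scaling between libraries by the 5kb bins, close to that by the size factors. Background was 49.0 to 230.4 raw counts per window.

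H3K9me2 at ssm4 was lost in the Clr6-related mutants and kept in clr3-D232N. At the highest window, I:4535101-4535400, the count was 1.99, 3.20 and 1.33 times background in Δfkh2, 1.21, 0.86 and 1.06 times in Δprw1, and 1.00 and 1.04 times in clr6-1. It was 10.7, 15.6 and 19.4 times background in clr3-D232N, and 22.9 and 13.9 times in wild-type. Every Clr6-related library lay below both wild-type libraries, while clr3-D232N libraries overlapped with wild-type. Normalized counts averaged 230 ± 99.98 in Δfkh2, 110 ± 18.5 in Δprw1 and 1613 ± 462 in clr3-D232N (SD, n = 3 each), and 108 ± 2.80 in clr6-1 and 1933 ± 668 in wild-type (SD, n = 2 each). By the edgeR quasi-likelihood test, adjusted over all 1500 windows, the log2 fold change was -3.07 (SE 0.52, adjusted p = 8.62e-08) in Δfkh2 and -4.13 (SE 0.54, adjusted p = 1.71e-13) in Δprw1. It was -4.16 (SE 0.64, adjusted p = 3.54e-09) in clr6-1 and -0.26 (SE 0.51, adjusted p = 0.653) in clr3-D232N.

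mcp7 showed the same split between the Clr6-related mutants and the other genotypes. At its highest window, I:579001-579300, the count was 1.92, 3.42 and 1.39 times background in Δfkh2, 1.07, 1.04 and 1.05 times in Δprw1, and 1.22 and 1.14 times in clr6-1. It was 10.5, 15.2 and 18.8 times background in clr3-D232N, and 18.5 and 10.3 times in wild-type. Again the Clr6-related libraries all lay below wild-type and clr3-D232N overlapped with wild-type. The edgeR log2 fold change was -2.67 (SE 0.50, adjusted p = 1.31e-06) in Δfkh2, -3.77 (SE 0.52, adjusted p = 3.08e-12) in Δprw1 and -3.60 (SE 0.61, adjusted p = 6.11e-08) in clr6-1, and 0.05 (SE 0.50, adjusted p = 0.923) in clr3-D232N.

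**Figure D1:**
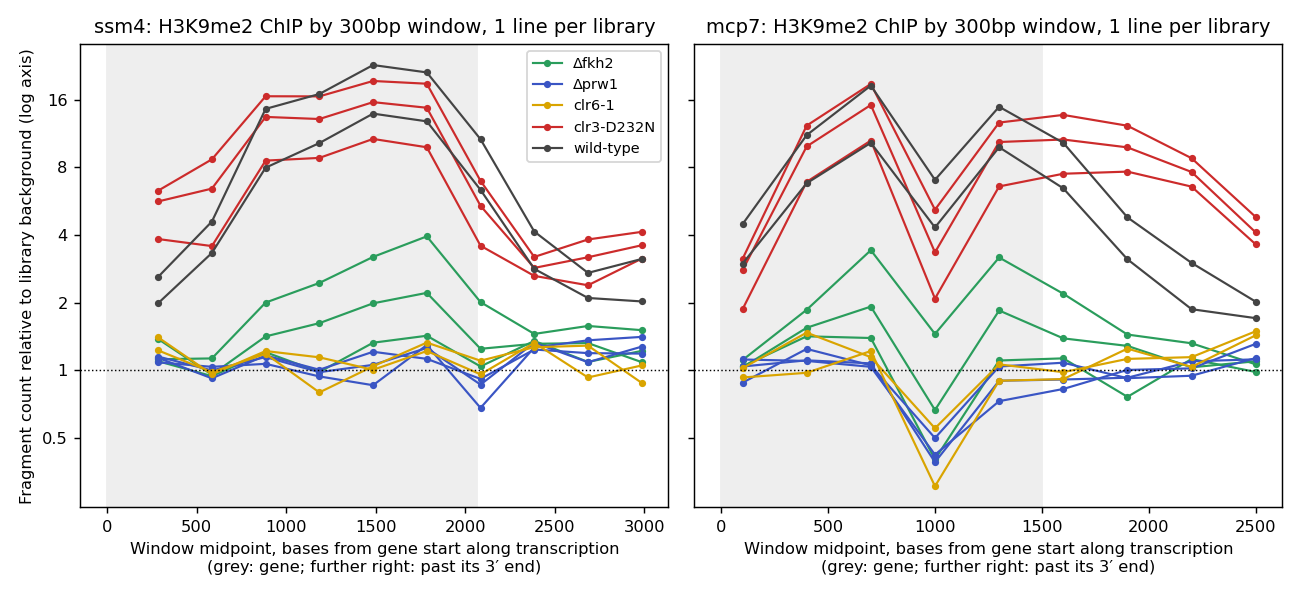
H3K9me2 ChIP counts relative to library background (log axis) in each kept 300bp window of ssm4 and mcp7, by distance of the window midpoint from the gene start along transcription, with 1 line per library colored by genotype and the gene in grey. clr3-D232N and wild-type lines lie far above the dotted background line and Δprw1 and clr6-1 lines run along it, while past the mcp7 3′ end the 3 clr3-D232N lines separate upward from the 2 wild-type lines.

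Calling a window took an edgeR adjusted p under 0.005 and a log2 fold change of more than 1 in either direction. In Δfkh2, 7 of 10 ssm4 windows and 7 of 9 mcp7 windows were called reduced, where 36% of all windows were. In Δprw1 the counts were 7 and 8 (48.3% of all windows), and in clr6-1 they were 8 and 7 (36.4%). No window of either island was called increased in these mutants (0.133%, 0.0667% and 0.4% of all windows). With this scaling, in every one of the 19 windows each library of each Clr6-related mutant lay below both wild-type libraries, a separation found in 65.1% of all windows for Δfkh2, 59.1% for Δprw1 and 44.9% for clr6-1. The windows were filtered on their height, so a window kept only because of the libraries where it is high had to differ.

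The median log2 fold change over the ssm4 windows was -2.66 in Δprw1, -2.54 in clr6-1, -2.26 in Δfkh2 and 0.06 in clr3-D232N, and over the mcp7 windows -2.96, -2.88, -2.41 and 0.12. Over all 1500 windows it was -1.53, 0.02, -1.38 and -2.46 in the same mutants. The islands thus stood below the median window in the 3 Clr6-related mutants and above it in clr3-D232N.

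clr3-D232N was also compared with each Clr6-related mutant directly. All 10 ssm4 windows and all 9 mcp7 windows were called higher in clr3-D232N than in Δfkh2, Δprw1 or clr6-1, where 4.13%, 7% and 5.67% of all windows were. With the Clr6-related mutants near background, these windows passed the filter on height mainly through clr3-D232N and wild-type. A difference in this direction was thus partly set by the filter. The median log2 fold change over mcp7 windows was 2.59 against Δfkh2, 3.08 against Δprw1 and 3.07 against clr6-1, and over ssm4 windows 2.33 against Δfkh2, 2.68 against Δprw1 and 2.53 against clr6-1.

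**Figure D2:**
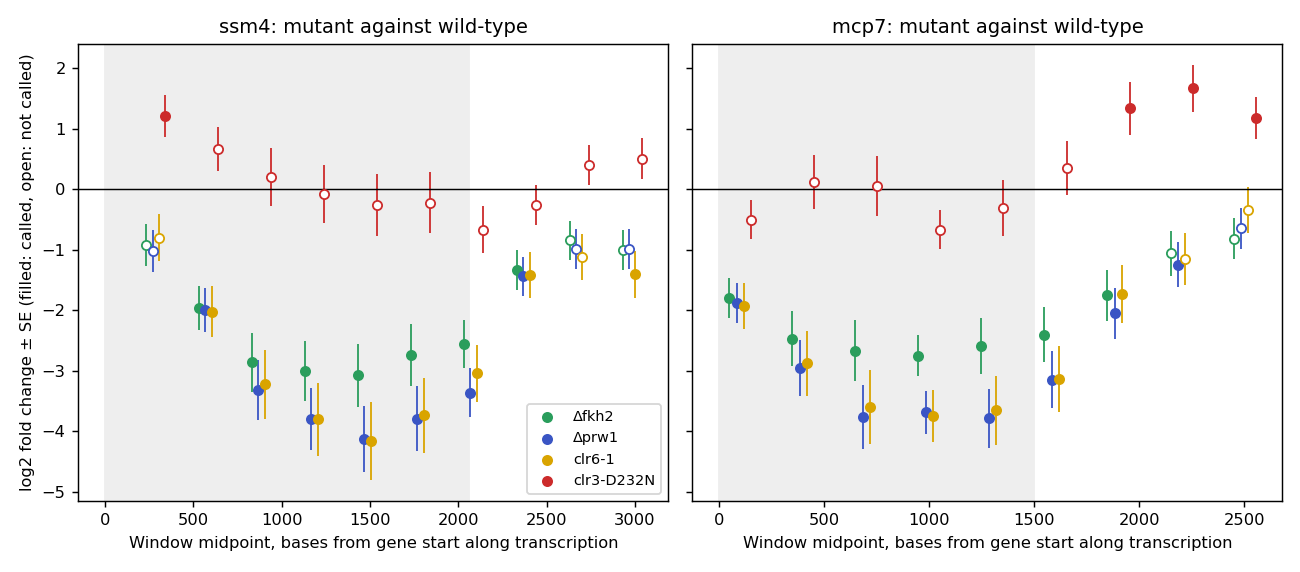
edgeR log2 fold change against wild-type (± SE) of each window at ssm4 and mcp7 in each of the 4 mutants, by distance from the gene start, with filled points for called windows, open points for the rest and the gene in grey. The Clr6-related mutants reach -3.07 to -4.16 at the highest ssm4 window and return toward 0 at the outer windows, and the filled clr3-D232N points above 0 are 1 window at the 5′ side of ssm4 and 3 windows past the 3′ end of mcp7.

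At the island centres the loss reached or came close to background in Δprw1, in clr6-1 and in replicate C of Δfkh2, while Δfkh2 A and B stayed higher. Averaged over the 6 centre windows of ssm4, the level was 1.59, 2.31 and 1.16 times background in Δfkh2, 1.09, 1.05 and 1.10 times in Δprw1, and 1.16 and 1.09 times in clr6-1, against 13.8 and 8.38 times in wild-type. Over the 5 centre windows of mcp7 it was 1.40, 2.20 and 1.07 times in Δfkh2, 0.90, 0.88 and 0.94 times in Δprw1, and 0.86 and 1.05 times in clr6-1, against 11.2 and 6.85 times in wild-type. Δfkh2 replicate B was the highest of the 8 Clr6-related libraries at both islands. Its windows held 50.5% of its fragments, against 30.8% and 36.9% in the other Δfkh2 libraries, and the part of this in its island level was not tested. Whether Δfkh2 differed from Δprw1 or clr6-1 was not tested either.

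On the log2 scale, the summed centre level of ssm4 was lower than wild-type with a difference of -3.31 in Δprw1, -3.26 in clr6-1 and -2.72 in Δfkh2, and that of mcp7 with -3.27, -3.20 and -2.55. The edges differed less on this scale, by -1.85, -1.91 and -1.62 at ssm4 and by -1.99, -1.79 and -1.73 at mcp7 in the same mutants. These levels include the background, so they cannot fall far below it. After its subtraction the ssm4 centre differed by -7.01 in Δprw1, -6.33 in clr6-1 and -4.27 in Δfkh2 and the ssm4 edge by -4.39, -5.06 and -3.37, while the mcp7 centre differed by -4.56 in Δfkh2 and the mcp7 edge by -7.14 in Δprw1 and -4.16 in clr6-1. The other mcp7 values could not be had, as a library lay at or below background. All differences without subtraction separated the libraries completely, at an exact permutation p = 0.1 for Δfkh2 and Δprw1 and p = 0.333 for clr6-1, the smallest that 3 against 2 and 2 against 2 libraries allow (2-sided). No such test can reach 0.05 here. All 5 centre windows of mcp7 were called reduced in each of the 3 mutants, and 5 of 6 at ssm4. At the edges 2 to 3 of 4 windows were called at each island, where wild-type itself stood closer to background.

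With the bin scaling, clr3-D232N left the centres at wild-type height. Centre levels were 7.56, 11.5 and 14.4 times background in clr3-D232N at ssm4, against 13.8 and 8.38 times in wild-type, and 5.60, 8.33 and 10.4 times at mcp7, against 11.2 and 6.85 times. The 2 groups overlapped at both genes, with log2 differences of 0.01 at ssm4 (exact permutation p = 1) and -0.15 at mcp7 (exact permutation p = 0.8). The wild-type replicates themselves differed, with B above C in each of the 19 windows. These differences and the levels relative to background rest on the bin scaling. With libraries scaled by their total count the mcp7 centre difference was 0.94 and with TMM on the windows 1.66. At ssm4 the edgeR log2 fold change of the highest window, I:4535101-4535400, moved likewise, from -0.26 to 0.87 and 1.64. These scalings raised the median window of clr3-D232N by 1.14 and 1.89.

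The far side of mcp7 was different. At I:580501-580800, inside ubp8, the count was 6.57, 7.64 and 8.80 times background in clr3-D232N, against 3.01 and 1.87 times in wild-type. Every clr3-D232N library lay above both wild-type libraries there and in the windows on either side, a separation found in 6.6% of all windows. The edgeR log2 fold change was 1.67 (SE 0.39, adjusted p = 5.16e-05), next to 1.34 (SE 0.43, adjusted p = 0.00315) at I:580201-580500 and 1.18 (SE 0.34, adjusted p = 0.00100) at I:580801-581100. These 3 of 9 mcp7 windows were called increased, where 0.867% of all windows were, and none was called reduced, against 64.9% of all windows. The windows were filtered on height with clr3-D232N among the libraries. A window high mainly there could be kept for that reason, so these counts describe the kept windows only.

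The 3 calls depended on single libraries. Without wild-type B 1 of them remained called, and without wild-type C none was. The call at I:580201-580500 was also lost without clr3-D232N B (edgeR adjusted p = 0.00503) and without clr3-D232N C (edgeR adjusted p = 0.00797), although the log2 fold change of the 3 windows stayed between 1.06 and 2.04 with any 1 library left out. In the 3 Clr6-related mutants these windows were at 0.76 to 1.49 times background.

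The shift at mcp7 was also present within libraries, where no scaling enters. The mean edge window relative to the mean centre window was 0.18, -0.05 and -0.07 on the log2 scale in clr3-D232N, against -1.16 and -1.06 in wild-type. The mean difference was 1.13, with all clr3-D232N libraries above both wild-type libraries (exact permutation p = 0.1, the smallest possible). After subtraction of background, the edge carried 116%, 96.3% and 94.4% of the centre excess in clr3-D232N, and 39.4% and 39.1% in wild-type.

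As a share of the highest mcp7 window in the same library, I:580501-580800 stood at 62.4%, 50.3% and 46.7% in clr3-D232N, against 16.2% and 18.2% in wild-type. I:578401-578700, at the gene start, went the other way, at 17.7%, 18.4% and 16.6% in clr3-D232N, against 24.1% and 29.0% in wild-type. Neither share was tested, and both were computed after the window values had been seen.

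The ssm4 edge as a whole overlapped with wild-type. The edge-to-centre ratio was -1.36, -1.61 and -1.67 on the log2 scale in clr3-D232N, against -1.42 and -1.33 in wild-type. The mean difference was -0.17 (exact permutation p = 0.3). The sign of this difference turned to 0.26 when windows overlapping the gene by any base were counted as centre, which moves I:4534501-4534800 from edge to centre, and to 0.13 with medians over windows. After subtraction of background it was -0.23, with all clr3-D232N libraries below both wild-type libraries (exact permutation p = 0.2). The edge then carried 29.5%, 26.3% and 26.3% of the centre excess in clr3-D232N, and 32.6% and 31.5% in wild-type. The outer ssm4 windows stood higher in clr3-D232N as a share of the highest window. I:4533601-4533900 was at 29.3%, 23.0% and 21.3% in clr3-D232N, against 13.7% and 14.6% in wild-type, and I:4533901-4534200 at 22.3%, 20.4% and 19.7% in clr3-D232N, against 11.9% and 15.1% in wild-type. Every clr3-D232N library was above both wild-type libraries in these shares, which were computed after the values had been seen and were not tested.

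At the 5′ side of ssm4, however, the window I:4536301-4536600, inside the gene, was the 1 of 10 called increased in clr3-D232N. It held 3.84, 5.65 and 6.31 times background in clr3-D232N, against 2.61 and 1.99 times in wild-type, with all clr3-D232N libraries higher. As at mcp7, the filter on height could keep a window for being high in clr3-D232N. The log2 fold change was 1.21 (SE 0.35, edgeR adjusted p = 0.00105), and the call was lost without wild-type B, without wild-type C and without clr3-D232N C, with values from 1.02 to 1.41 over all such omissions. As a share of the highest ssm4 window it stood at 35.8%, 36.1% and 32.5% in clr3-D232N, against 11.4% and 14.3% in wild-type, a share chosen and computed after the values were seen and not tested.

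**Figure D3:**
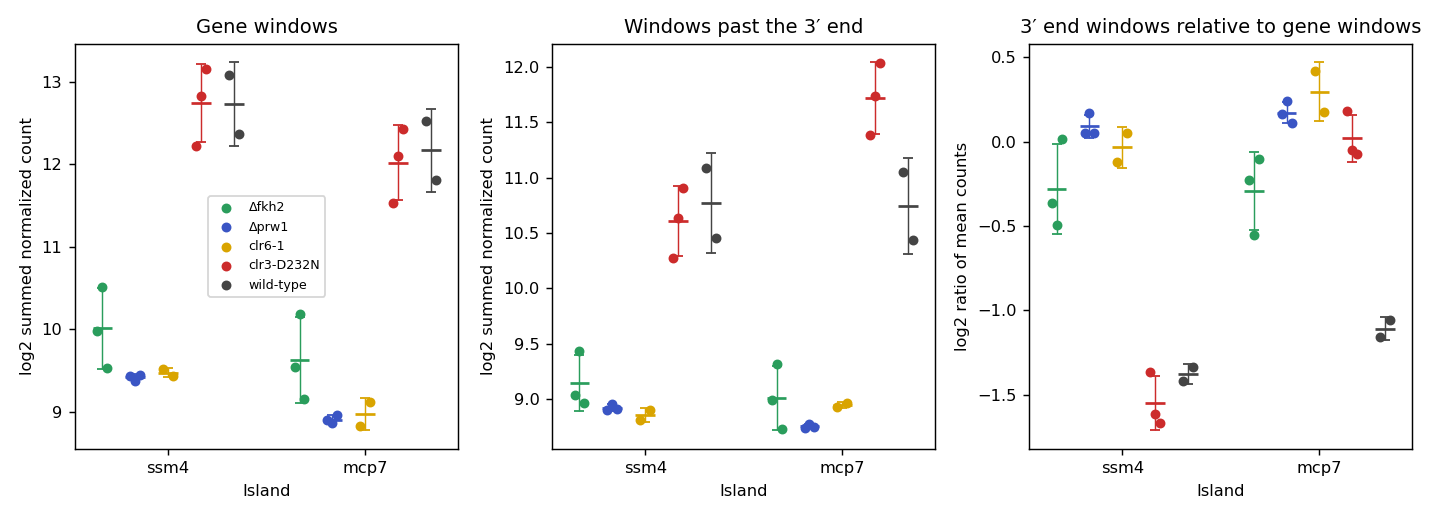
Left and middle, log2 summed normalized counts of the centre and edge windows, and right, the log2 ratio of the mean edge window to the mean centre window, at ssm4 and mcp7, with 1 point per library and the mean ± SD of each genotype. The mcp7 ratio of clr3-D232N, -0.07 to 0.18, lies above wild-type, -1.16 and -1.06, while at ssm4 these genotypes overlap, and ratios of Δprw1 and clr6-1 are near 0, where their windows are at background.

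The ratio between the islands also differed. Their summed log2 ratio, ssm4 over mcp7, was 0.16 ± 0.05 in clr3-D232N (SD, n = 3), against 0.43 ± 0.01 in wild-type (SD, n = 2), a difference of -0.27 with all clr3-D232N libraries lower (exact permutation p = 0.1, the smallest possible). It was 0.29 ± 0.03 in Δfkh2 and 0.36 ± 0.02 in Δprw1 (SD, n = 3 each) and 0.24 ± 0.12 in clr6-1 (SD, n = 2).

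Within mcp7 the window I:579301-579600 dipped below its neighbours in every genotype. It lies past the coding end at 579247, in the 3′ untranslated part where ubp8 overlaps, and has a GC content of 25.7%, the lowest of the 19 windows. It held 0.67, 1.45 and 0.40 times background in Δfkh2, 0.39, 0.42 and 0.50 times in Δprw1, 0.30 and 0.55 times in clr6-1, and 2.08, 3.35 and 5.19 times in clr3-D232N, against 7.05 and 4.32 times in wild-type. In each of the 13 libraries it lay below the windows on both sides. The part of base composition in this dip was not tested.

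The 5kb bins that overlap the genes gave the same picture at lower resolution, in part from the same fragments. Of the 8 bins of 5kb, 3 were called reduced in each Clr6-related mutant, against 2.34% (Δfkh2), 4.17% (Δprw1) and 3.65% (clr6-1) of all bins, and these were I:4530001-4535000, I:4535001-4540000 and I:575001-580000 each time. None of the 8 was called increased (0.159%, 0% and 0.238% of all bins), and none was called in clr3-D232N in either direction (3.89% reduced, 0.159% increased). The reduced calls fell to 1 bin in Δfkh2 with only Δfkh2 and wild-type in the fit, to 0 there with total-count scaling and to 1 in clr6-1 without clr6-1 A. With TMM on the windows none was reduced in Δfkh2 or Δprw1, and 4 were called increased in Δprw1. In I:4535001-4540000 the Clr6-related libraries held 1.09 to 1.40 times the median bin, against 5.25 and 3.43 times in wild-type. The bin beside mcp7 at I:580001-585000, over ubp8 and ysp2, had a log2 fold change of -0.85 in Δprw1, -0.82 in clr6-1 and -0.81 in Δfkh2, short of the threshold of 1. In clr3-D232N that bin held 2.26, 2.55 and 2.97 times the median bin, against 2.10 and 1.64 times in wild-type. All clr3-D232N libraries were higher, with a log2 fold change of 0.48 (SE 0.16, edgeR adjusted p = 0.0358) that was not called. The 4 outer bins stood between 0.92 and 1.28 times the median bin in all 13 libraries.

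**Figure D4:**
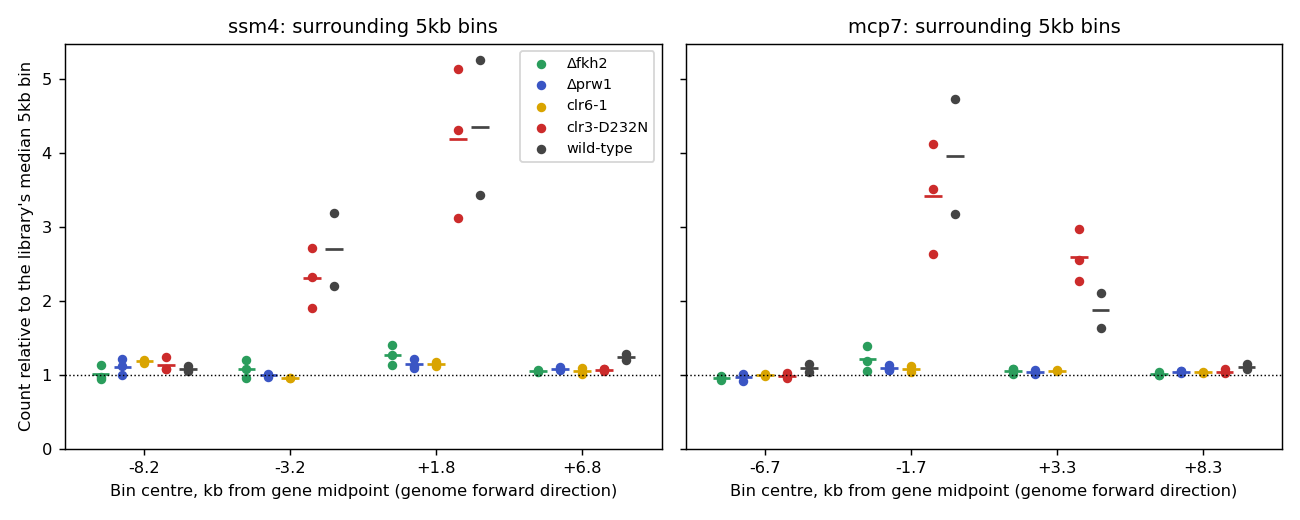
Counts in the 4 bins of 5kb around each gene, relative to the library's median bin, by bin centre from the gene midpoint, with 1 point per library and a bar for the mean of each genotype. Island bins of clr3-D232N and wild-type reach 5.14 and 5.25 times the median bin, and the Clr6-related mutants stay at or under 1.40 times. The outer bins lie between 0.92 and 1.28 times in all genotypes.

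Other meiotic genes known as targets of Mmi1 or of heterochromatin islands were taken as a list of 8. Of these, mei4, which encodes the forkhead transcription factor of meiosis, mcp5, which encodes a dynein anchor, and mug8 and mug9, found as genes upregulated in meiosis, had filtered windows, 18 in all, and rec8, spo5, crs1 and mbx2 had none. Reduced calls took in 12 of the 18 windows for Δprw1, 8 for clr6-1 and 7 for Δfkh2, where 48.3%, 36.4% and 36% of all windows were called, so that the clr6-1 and Δfkh2 shares were near the background. In clr3-D232N 7 were called increased and 0 reduced, against 0.867% and 64.9% of all windows. These windows had passed the same filter on height, in which clr3-D232N took part. mei4 gave all 6 of its windows as reduced in each Clr6-related mutant, with mean levels of 1.21 times background in Δprw1, 1.22 in clr6-1, 2.88 in Δfkh2 and 15.4 in clr3-D232N, against 15.6 in wild-type. Of the 8 mcp5 windows, 5 were among those increased in clr3-D232N, with a mean level of 5.75 times background in clr3-D232N, against 2.50 in wild-type.

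Over the 13 libraries the mean log2 normalized count of the ssm4 windows and that of the mcp7 windows had a Pearson r of 0.998. Among 259 other genes with at least 3 windows, the most alike to ssm4 were mei4 (r = 0.991), the noncoding RNA genes SPNCRNA.7180 (0.986) and SPNCRNA.5202 (0.985), chk1 (0.977), the DNA damage checkpoint kinase, and SPNCRNA.925 (0.974). For mcp7 they were SPNCRNA.7180 (0.990), mei4 (0.988), chk1 (0.984), SPNCRNA.5202 (0.982) and meu27 (0.980). The median r over the 259 genes was -0.14 for ssm4 and -0.12 for mcp7. The libraries share their scaling, SPNCRNA.5202 lies within mei4, and SPNCRNA.7180 and meu27 overlap chk1, so these are not independent genes.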

How the data were processed

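The authors deposited raw fragment counts of H3K9me2 ChIP, without normalization, in 300bp windows and 5kb bins. Per the labels and methods, their tools were Trimmomatic 0.39 for trimming, Bowtie2 2.4.2 for alignment to ASM294v2 and Picard 2.25.2 for removing duplicates, and they counted fragments with csaw and kept windows above background. Chromosome lengths equal those of ASM294v3, which gave annotation and sequence. Column names give the strain and replicate letter, and methods identify them as ChIP libraries.

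Counts were divided by DESeq2 1.42.0 size factors of the 5kb bins and tested with edgeR 4.0.16 (R 4.3.3), all genotypes in one fit, with Benjamini-Hochberg adjustment over all windows or bins. Levels per library were compared by exact permutation in Python 3.11.15. On simulated data, where 200 of 1500 windows had a set log2 change of 2 in clr3-D232N against wild-type, edgeR recovered 120 with 1 false call and DESeq2 145 with 5. Windows named singly were the highest in wild-type, those with the lowest and highest fold change in each mutant, and any called increased. I:578401-578700, I:4533601-4533900, I:4534801-4535100, I:4535401-4535700 and I:4535701-4536000 lie outside this rule and were named once their values had been seen, as were the surrounding bins named. Members and lists were chosen with earlier results of these data known. Alternatives tried were DESeq2's Wald test (mean dispersion for bins, where its trend could not be fitted), total-count and TMM scaling, a fit of only 2 groups, a replicate block, other thresholds, a stricter filter, other definitions of centre and level, and each library left out.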

Additional observations from a re-analysis of the deposited data

How the results depend on the processing

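Total-count scaling moved the median window by 0.64 in Δprw1, -0.09 in clr6-1, 0.79 in Δfkh2 and 1.14 in clr3-D232N, and TMM on windows by 0.16 to 1.89. With total counts, bins called reduced in Δfkh2 fell to 0, and clr3-D232N had 6 ssm4 windows, 6 mcp7 windows and 3 bins increased. With TMM on windows, Δfkh2 had 0 bins reduced, Δprw1 had 5 mcp7 windows and 0 bins reduced and 4 bins increased, and clr3-D232N had 10 ssm4 windows, 9 mcp7 windows and 8 bins increased. The cause was not tested beyond the shift of the median window.

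With only 2 groups in the fit, 1 bin was reduced in Δfkh2. Without a fold change threshold, 5 bins were reduced in each Clr6-related mutant and 1 in clr3-D232N. With the lowest 25% of windows left out, no ssm4 window was increased in clr3-D232N and 6 were higher than in each Clr6-related mutant, as the 4 lowest ssm4 windows had left the table.

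For clr3-D232N minus wild-type, the ssm4 centre became -0.052 with any-overlap centres. The ssm4 edge became 0.19 with medians, 0.93 with total counts, 1.65 with TMM on windows and 0.21 with any-overlap centres, and the ssm4 edge-to-centre ratio 0.13 with medians and 0.26 with any-overlap centres. The mcp7 centre became 0.10 with medians, 0.94 with total counts and 1.66 with TMM on windows. For Δfkh2 minus wild-type, the difference in the ratio of ssm4 to mcp7 became 0.63 after background subtraction and 0.0033 with medians. Background subtraction gave no value for 8 mcp7 results of Clr6-related mutants, where a library was at or below background.

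Single windows changed sign too, first with total counts and then with TMM on windows. In clr3-D232N, 579301-579600 became 0.46 and 1.23, 4534501-4534800 0.47 and 1.23, and 4535101-4535400 0.87 and 1.64. At 580801-581100, Δfkh2 became 0.0025 and 0.39, and Δprw1 0.040 and 0.92. At 4533901-4534200, TMM on windows gave 0.35 in Δfkh2 and 0.60 in Δprw1.

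With 1 library left out, clr3-D232N had 0 to 1 ssm4 windows and 0 to 3 mcp7 windows increased and 0 to 1 mcp7 window reduced (1 without clr3-D232N C), and clr6-1 had 1 to 3 bins reduced (1 without clr6-1 A). The clr3-D232N difference ranged from -0.35 to 0.37 at the ssm4 centre, -0.48 to 0.15 at the ssm4 edge and -0.51 to 0.21 at the mcp7 centre, and that of the highest windows from -0.58 to 0.14 at 4535101-4535400 and -0.31 to 0.54 at 579001-579300. Each mcp7 edge-to-centre difference of clr3-D232N stayed between 1.05 and 1.18.

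Over 22 same-letter pairs of libraries the correlation of deviations ran from -0.72 to 0.66, with a median of 0.10 and 12 over 0.1. Over 45 pairs of unlike letters it ran from -0.72 to 0.72, with a median of -0.10 and 18 over 0.1. The ranges overlapped, so the letters were not shown to pair the libraries, nor was sharing by letter excluded. With the replicate block, 7 ssm4 and 8 mcp7 windows were reduced in Δprw1, 7 and 7 in Δfkh2 and 8 and 7 in clr6-1, while clr3-D232N had 1 and 3 increased. With 2 wild-type libraries no exact test could pass 0.05, and no input was used.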
